A study of Homo sapiens with 8 samples.

Results

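Zinc finger genes on chromosome 19 were examined in LP-1, an established human multiple myeloma cell line, as one family among the genes measured by RNA-seq. Rows were taken whose symbol was ZNF followed by a number and at most 1 further letter, whose deposited locus lay on chromosome 19, and whose mean over the 8 libraries was at least 1 RPKM, reads scaled to gene length and to the mapped reads of the library. Of 266 rows that matched the symbol and the chromosome, 195 passed this level and 71 did not, so the 195 are the members that LP-1 expressed at this depth and not the whole chromosomal family. They are 195 of 14732 genes tested. They carry 194 symbols, since ZNF788 was listed under 2 Ensembl identifiers with overlapping loci. Within the family the members were chosen by their mean level, so levels are given as a description. That mean includes the treated libraries, so a change with treatment can carry a gene near the limit across it. ZNF699, ZNF709 and ZNF846 were members although their mean over the 4 DMSO libraries was under 1 RPKM, and ZNF234 was left out although its DMSO mean reached it.
All 4 groups were LP-1 cells harvested after 6 hr, with no genetic change named in the labels. The library titles carry 2 naming series, each here called an experiment, though the labels do not say what the series mark. One holds 2 replicate libraries with 2.5 μM SGC-CBP30, an inhibitor of the bromodomains of CBP and EP300, and 2 with DMSO, the solvent. The other holds 2 libraries with 250 nM CPI203, an inhibitor of the bromodomains of the BET proteins, and 2 with DMSO. The controls of a compound were the DMSO libraries whose titles carry the same naming series, here called its own DMSO. LP-1 is a single cell line, and the study calls its replicates biological without saying that they came from separate cultures, so p-values measure only the spread between these samples. The doses of the compounds differ, and their responses are set side by side at these doses only. Plasma cell genes were abundant, with MZB1 between 295 and 531 RPKM and IRF4 between 79.5 and 228, whereas the B cell gene MS4A1, the T cell gene CD3E and the monocyte gene CD14 were at most 0.045, 0.18 and 0.0929 RPKM.
Proteins of this family carry arrays of small DNA-binding modules, each folded around a zinc ion held by cysteines and histidines, and the array reads out a DNA sequence. Many also carry a KRAB domain near the amino terminus. The KRAB domain binds TRIM28, which brings the histone methyltransferase SETDB1, heterochromatin proteins of the CBX family and deacetylases to the site and silences it. Many KRAB zinc finger proteins bind transposable elements, and their genes arose by repeated duplication, which left them in clusters of near-identical neighbours.

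Depth was estimated from the steps that single reads leave in low RPKM values, and lay between 26000000 and 50100000 reads per library. By library, 64.0% to 78.2% of the values used came within 0.1 of a whole read under this estimate, so it is approximate. At that depth the reads per library behind a member ranged from about 80 to 4700, with a median of about 500. Over the members, replicates differed on the log2 scale with an SD of 0.201 to 0.223 by group, against 0.091 to 0.115 over all genes of at least 10 RPKM. The summed level of the members was between 919.0 and 1044 RPKM, which is 0.184% to 0.217% of a library's total.

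The members were expressed at low levels. The median of their means over the 8 libraries was 3.87 RPKM, 31 of the 195 were under 2 RPKM and 16 reached 10 RPKM. The most abundant was ZNF146 (chr19:36705503-36729676, hg19), a finger protein without a KRAB domain, at 35.9 RPKM. It was followed by ZNF428 at 32.9, ZNF580 at 23.9, ZNF544 at 18.0 and ZNF266 at 16.3 RPKM. Just inside the limit of 1 RPKM lay ZNF699 at 1.04, ZNF565 at 1.04 and ZNF546 at 1.09 RPKM, and just outside it ZNF563 at 0.901, ZNF850 at 0.928 and ZNF234 at 0.98 RPKM. ZNF544 and ZNF266 were the only members of these 5 with a KRAB pattern in their predicted protein.
A KRAB pattern was found in 165 of the 192 members with a matched coding transcript in GENCODE release 29, and 27 had none. ZNF137P and both ZNF788 rows had no coding transcript there. The members encoded a median of 12 zinc fingers, with 0 in ZNF738, 1 in ZNF414 and ZNF428, and 31 in ZNF91, a repressor of SVA retrotransposons. Members with the KRAB pattern had a median of 13 fingers and 3.76 RPKM, and those without it 8 fingers and 6.12 RPKM. A protein in which the pattern was not found may still hold a diverged domain.

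With SGC-CBP30 the members shifted upwards by a small amount. The median log2 fold change on the log2(RPKM + 0.1) scale was 0.185 over the members, against 0.070 over all genes tested, 0.142 over 214 zinc finger genes of the same naming pattern on other chromosomes and -0.031 over 755 other genes of chromosome 19. Of the 195 members 158 were above 0, which is 81.0% against 60.9% of all genes tested, and 137 lay above the median of all genes. The share above 0 was also high, at 76.6%, for zinc finger genes on other chromosomes, so it is not particular to chromosome 19. Over all genes within the members' range of mean RPKM it was 65.1%. In bulk RNA a change in RNA per cell and a change in the share of cells that express a gene cannot be told apart. Few of these changes were large. A gene was called at an adjusted p under 0.05 from limma and a change of at least 1.5-fold, and 6 members were called higher, which is 3.08% against 3.47% of all genes tested. The limma fit called 0 members lower, against 3.79% of all genes, and 3 members were lower at an unadjusted p under 0.05. Without a minimum fold, 48 members were higher at an adjusted p under 0.05, or 24.6% against 25.6% of all genes, a share close to the background. Only 3 were lower, or 1.54% against 14.8% of all genes.
The number of members with both SGC-CBP30 libraries above both DMSO libraries was 115, or 59.0% against 45.9% of all genes, and 12 members, or 6.15% against 27.2%, had both below. For zinc finger genes on other chromosomes these shares were 57.5% and 12.6%. The SGC-CBP30 libraries were 1.417 times as deep as their DMSO libraries, and the part of depth in this shift was not tested. With the libraries scaled to a common median, the members' median log2 fold change was 0.109, while that of all genes moved to -0.006.

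The member with the largest called increase was ZNF426 (chr19:9638666-9649303, hg19), a KRAB protein gene with 11 fingers. It stood at 1.70 and 1.72 RPKM with DMSO and at 3.48 and 3.42 with SGC-CBP30, a log2 fold change of 0.97 (SE 0.11, adjusted p = 0.000222, limma). The libraries of each group lay close together and the groups did not overlap. ZNF433 (chr19:12125546-12146556) was at 0.768 and 0.930 RPKM with DMSO and at 1.81 and 1.65 with SGC-CBP30 (log2 fold change 0.95, SE 0.22). ZNF681 (chr19:23921996-23941693), the only called member of the 6 above 5 RPKM, went from 6.00 and 5.64 to 9.16 and 9.14 RPKM (log2 fold change 0.64, SE 0.07).
ZNF888, ZNF415 and ZNF571 completed the called members, with log2 fold changes of 0.76, 0.65 and 0.60. All 6 encode a KRAB pattern and 11 to 18 fingers, and they lie in clusters 2, 3, 5, 8 and 13 of the 14 described below. The treated libraries were above the DMSO libraries of the same experiment for each of the 6. For these genes the DMSO controls of CPI203 stood higher than those of SGC-CBP30. ZNF571 was at 1.02 and 0.982 RPKM with DMSO and at 1.57 and 1.59 with SGC-CBP30, and already at 1.56 and 1.78 in the DMSO controls of CPI203. ZNF426, ZNF681, ZNF571 and ZNF888, 4 of the 6, were also called higher in the DMSO controls of CPI203 than in those of SGC-CBP30, a comparison that shares the latter libraries. With all 4 DMSO libraries as controls 0 members were called higher with SGC-CBP30, and the log2 fold change of ZNF426 was 0.67. The part of the DMSO level in these calls was not tested.
The 3 members lower at an adjusted p under 0.05 missed the 1.5-fold limit. ZNF296 (chr19:45574757-45579846) was at 8.82 and 8.59 RPKM with DMSO and at 6.21 and 5.41 with SGC-CBP30 (log2 fold change -0.58, SE 0.10, adjusted p = 0.0022, limma). ZNF69 and ZNF788 are named because they complete the count, after their values were seen. ZNF69 had a log2 fold change of -0.43. ZNF788 had one of -0.42 in its more abundant row and 0.71 in its other row, which did not pass the test, and how reads of these overlapping rows were divided is not given in the sources used here.

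With CPI203 the members moved much further and in both directions. The median log2 fold change was 0.172, against -0.015 over all genes tested, -0.002 over zinc finger genes on other chromosomes and -0.084 over other genes of chromosome 19. Of the members 44 were called higher, or 22.6% against 13.4% of all genes tested, and 23 were called lower, or 11.8% against 14.4%. Over all genes within the members' range of mean RPKM these shares were 15.7% and 16.0%. ZNF699 and ZNF846 are among the 44, although they passed the level limit only with the treated libraries counted. Without a minimum fold 77 members were higher, or 39.5% against 31.1% of all genes, and 43 were lower, or 22.1% against 33.1%. In all 44 called increases both CPI203 libraries were above both DMSO libraries of the experiment, and in all 23 decreases both were below. Over all members 99 had both CPI203 libraries above both DMSO libraries, or 50.8% against 39.2% of all genes, and 59 had both below, or 30.3% against 41.7%. The depths of the CPI203 and DMSO libraries were in a ratio of 1.005. Members under 5 RPKM had a median of 0.261, with 26.2% called higher and 10.7% lower. Those of at least 5 RPKM had a median of 0.057, with 16.4% called higher and 13.7% lower. None of the 16 members of at least 10 RPKM was called higher, and 3 were called lower.

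**Figure D1:**
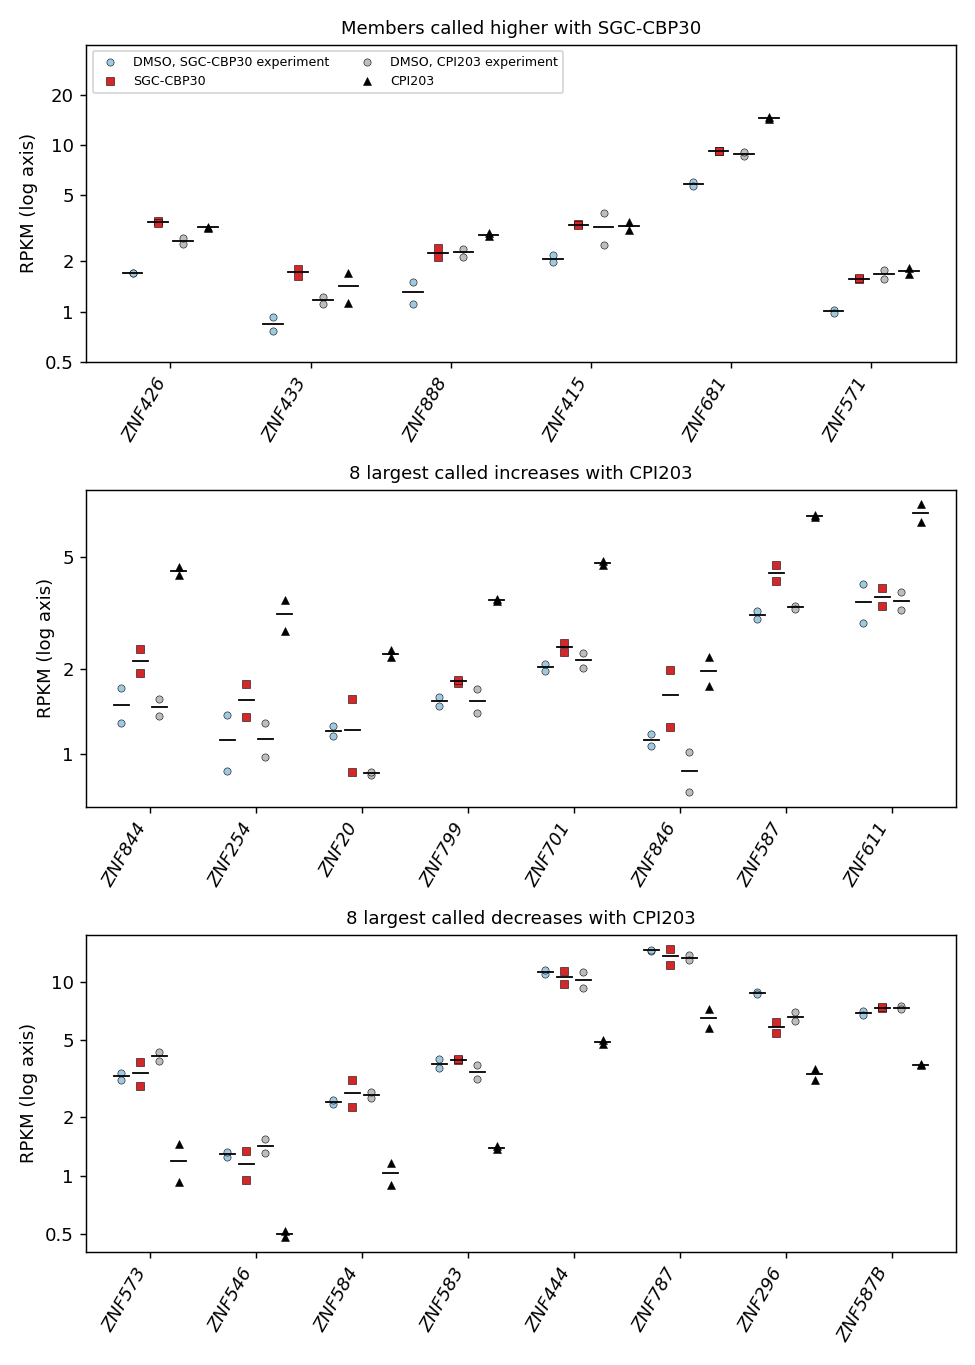
RPKM of the named members in each of the 8 libraries on log axes, for the 6 members called higher with SGC-CBP30 (top), the 8 largest called increases with CPI203 (middle) and the 8 largest called decreases with CPI203 (bottom). Each point is 1 library and each short line the mean of 2; the CPI203 libraries stand apart from the other 6 in the middle and bottom panels, except for ZNF846, where 1 SGC-CBP30 library lies within the CPI203 range, whereas in the top panel the DMSO controls of CPI203 lie at or near the SGC-CBP30 level for several genes.

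The largest increase with CPI203 was in ZNF844 (chr19:12175513-12192380, hg19), a KRAB protein gene with 6 fingers. It was at 1.57 and 1.37 RPKM with DMSO and at 4.58 and 4.30 with CPI203, a log2 fold change of 1.53 (SE 0.17, adjusted p = 3.14e-05, limma). ZNF254 (chr19:24216275-24312654) rose from 0.980 and 1.29 to 3.51 and 2.74 RPKM (log2 fold change 1.39, SE 0.25). These levels were the highest of the 8 libraries for both genes.
ZNF20 rose from 0.844 and 0.862 to 2.33 and 2.21 RPKM, a log2 fold change of 1.31 (SE 0.25). Its locus overlaps ZNF788, ZNF625 and a ZNF625-ZNF20 read-through gene, with which it can share reads. ZNF799 rose from 1.69 and 1.398 to 3.55 and 3.50 RPKM (1.14), and ZNF701 from 2.02 and 2.28 to 4.83 and 4.68 RPKM (1.11). ZNF846 (1.09), ZNF587 (1.05) and ZNF611 (1.01) followed on the same log2 scale, and the locus of ZNF701 overlaps that of ZNF808. ZNF846 was a member only with the treated libraries counted, since its mean over the DMSO libraries was under 1 RPKM. ZNF587, known to bind endogenous retroviruses of the HERV-K family, was at 3.35 and 3.28 RPKM with DMSO and at 6.94 and 7.05 with CPI203.
ZNF91 and ZNF93, picked for their known transposon targets after their values were seen, were also called higher. ZNF91 was at 6.04 and 4.78 RPKM with DMSO and at 9.60 and 7.62 with CPI203 (log2 fold change 0.66, SE 0.16). ZNF93, a repressor of LINE-1 elements, went from 4.88 and 5.24 to 8.36 and 7.41 RPKM (0.63, SE 0.09). Both changes fell under 1.5-fold without CPI203 replicate 1, at 0.495 for ZNF91 and 0.542 for ZNF93, and so did that of ZNF91 without replicate 2 of its DMSO (0.494) and that of ZNF93 without replicate 1 of it (0.577).
The largest decrease with CPI203 was in ZNF573 (chr19:38226733-38307940), a KRAB protein gene with 19 fingers. It was at 3.92 and 4.33 RPKM with DMSO and at 0.931 and 1.46 with CPI203, a log2 fold change of -1.74 (SE 0.20, adjusted p = 4.15e-05, limma). ZNF546 fell from 1.31 and 1.54 to 0.481 and 0.521 RPKM (-1.34, SE 0.22), and ZNF584 from 2.52 and 2.70 to 1.17 and 0.899 RPKM (-1.27, SE 0.19). ZNF583 fell from 3.16 and 3.71 to 1.37 and 1.42 RPKM (-1.24, SE 0.12).
The remaining large decreases were in more abundant genes. ZNF444 fell from 11.2 and 9.28 to 4.77 and 4.98 RPKM (-1.05), ZNF787 from 13.7 and 12.9 to 5.76 and 7.19 (-1.03) and ZNF296 from 6.94 and 6.28 to 3.13 and 3.57 (-0.96). ZNF587B fell from 7.45 and 7.25 to 3.75 and 3.72 RPKM (-0.96, SE 0.08). ZNF587B and ZNF587 have overlapping loci and went in opposite directions, a pair between which reads could be split. Of the 195 members, 69 overlap another gene of at least 1 RPKM. Among the 126 that do not, 28 were called higher and 11 lower, or 22.2% and 8.73% against 13.4% and 14.4% of all genes tested. ZNF473, which encodes a factor in the processing of histone pre-mRNA, was at 6.59 and 6.90 RPKM with DMSO and at 3.75 and 4.27 with CPI203 (-0.74, SE 0.09).

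Members with and without the KRAB pattern differed in their counts with CPI203. Of the 165 with it, 40 were called higher and 13 lower, and their median log2 fold change was 0.232. These are 24.2% and 7.88%, against 13.4% and 14.4% of all genes tested. Of the 27 without the pattern, 3 were called higher and 10 lower, or 11.1% and 37.0%, and the median was -0.408. The 10 were ZNF444, ZNF787, ZNF296, ZNF358, ZNF414, ZNF653, ZNF865, ZNF581, ZNF507 and ZNF446, and the 3 were ZNF345, ZNF784 and ZNF575. Those outside the naming rule were named to complete these counts. The 27 were also the more abundant members, and no test of this difference was made. Among the 165, those in clusters 3, 5 and 13 below, grouped after their values were seen, differed from the rest. Of these 77, 29 were called higher and 2 lower (median 0.453). Of the other 88 with the pattern, 11 were called higher and 11 lower (median -0.002), both close to the shares of all genes tested. Over zinc finger genes on other chromosomes the medians were 0.073 for 97 genes with the pattern and -0.068 for 114 without it. With SGC-CBP30 the medians of the members were 0.207 with the pattern and 0.079 without it. Members called higher with CPI203 had a median of 13 fingers and those called lower a median of 9.

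**Figure D2:**
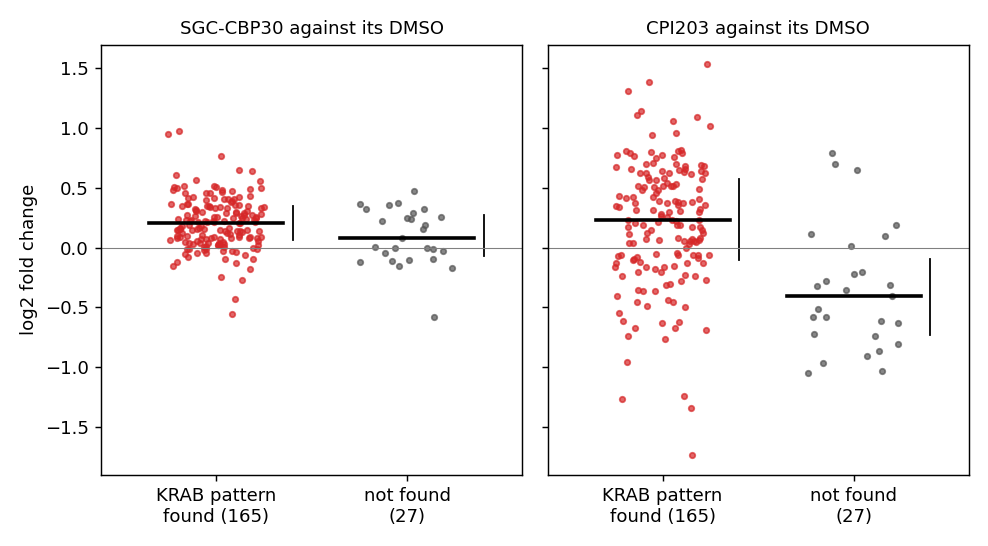
Log2 fold change of members in which a KRAB pattern was found (165) and in which none was found (27), with SGC-CBP30 (left) and CPI203 (right). Each point is 1 member, the thick line is the median and the thin line spans the quartiles; with CPI203 the medians lie at 0.232 and -0.408.

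Along the chromosome the members fall into 14 clusters, split where the starts of neighbouring zinc finger genes of the same naming pattern, members or not, lie over 1 Mb apart, and numbered from the short-arm end. Clusters 3, 5 and 13 hold 81 members, of which 30 were called higher and 3 lower with CPI203 (median log2 fold change 0.453). The other 11 clusters hold 114 members, of which 14 were called higher and 20 lower (median -0.085). Over all genes tested 13.4% were called higher and 14.4% lower. The clusters were grouped after their values were seen, so this is a description. With SGC-CBP30 the same groups had medians of 0.215 and 0.18.
Cluster 5 (chr19:19779604-24312654, hg19) lies next to the centromere and holds 24 members, all with the KRAB pattern. All 24 had both CPI203 libraries above both DMSO libraries, with log2 fold changes from 0.17 to 1.39 and a median of 0.492. At an adjusted p under 0.05 20 of them were higher, and 9 were called. These are 83.3% and 37.5%, against 31.1% and 13.4% of all genes tested. The smallest change was in ZNF429 and the largest in ZNF254. ZNF100 and ZNF43 were chosen as examples after their values were seen. ZNF100 rose from 4.50 and 4.61 to 7.96 and 7.71 RPKM (log2 fold change 0.77, SE 0.08), and ZNF43, which did not reach 1.5-fold, from 4.64 and 4.83 to 6.91 and 6.59 RPKM (0.50, SE 0.08). With SGC-CBP30 22 of the 24 were above 0, with a median of 0.269, and 10 were higher at an adjusted p under 0.05. These are 91.7% and 41.7%, against 60.9% and 25.6% of all genes tested. With all 4 DMSO libraries as controls the SGC-CBP30 median was 0.152. In this cluster the DMSO libraries of CPI203 stood above those of SGC-CBP30 by a median of 0.187. The median with CPI203 stayed between 0.409 and 0.6 under the alternatives tried.
Cluster 3 (chr19:11594241-12750912), which holds ZNF844, ZNF20 and ZNF799, had 9 of 22 members called higher (40.9%) and 1, ZNF653, called lower (4.55%), with a median of 0.497. Cluster 13 (chr19:52074550-54083523), which holds ZNF701 and ZNF611, had 12 of 35 called higher (34.3%) and 2 lower (5.71%). Its median was 0.359, and 0.211 at a mean of at least 5 RPKM. Cluster 14 (chr19:55987698-58992597), at the end of the long arm, had 7 of 50 called higher and 11 lower, with a median of -0.170, which was -0.298 at a mean of at least 5 RPKM. With 1 library left out 4 to 7 of its members were called higher, the fewest without DMSO replicate 2. Neighbours there diverged, with ZNF587 called higher and ZNF583, ZNF584 and ZNF587B called lower. With SGC-CBP30 the median of cluster 8 (chr19:36673187-38307940) was 0.286, with 21 of its 22 members above 0. That is 95.5%, against 60.9% of all genes tested. With all 4 DMSO libraries as controls this median was 0.154. In this cluster the DMSO libraries of CPI203 stood above those of SGC-CBP30 by a median of 0.174, with 19 members above 0. With SGC-CBP30 the median of cluster 2 (chr19:7069454-9903856) was 0.347 over 14 members, and 0.281 with all 4 DMSO libraries. That of cluster 11 (chr19:44029648-45579846) was 0.249 over 15, between 0.173 and 0.339 with 1 library left out and 0.234 with all 4 DMSO libraries. With CPI203 the medians of these clusters were small and rested on single libraries. That of cluster 8 was -0.061, was -0.017 without CPI203 replicate 1 and -0.093 without replicate 2, and turned to 0.037 with all 4 DMSO libraries as controls. That of cluster 2 was -0.109, with -0.026 without DMSO replicate 1, -0.034 without CPI203 replicate 1 and -0.183 without CPI203 replicate 2, and -0.493 at a mean of at least 5 RPKM. That of cluster 11 was 0.093, with 0.057 and 0.149 without DMSO replicate 1 or 2 and 0.052 and 0.165 without CPI203 replicate 1 or 2. The remaining 7 clusters hold 1 to 3 members each. Among these, ZNF507 of cluster 6 fell with CPI203 by 0.63 on the log2 scale, while ZNF333 of cluster 4 was called higher (0.63). These calls were lost without DMSO replicate 2 (-0.558) and without CPI203 replicate 1 (0.487). ZNF554 and ZNF555 of cluster 1 and ZNF574 and ZNF526 of cluster 10 passed neither test.

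**Figure D3:**
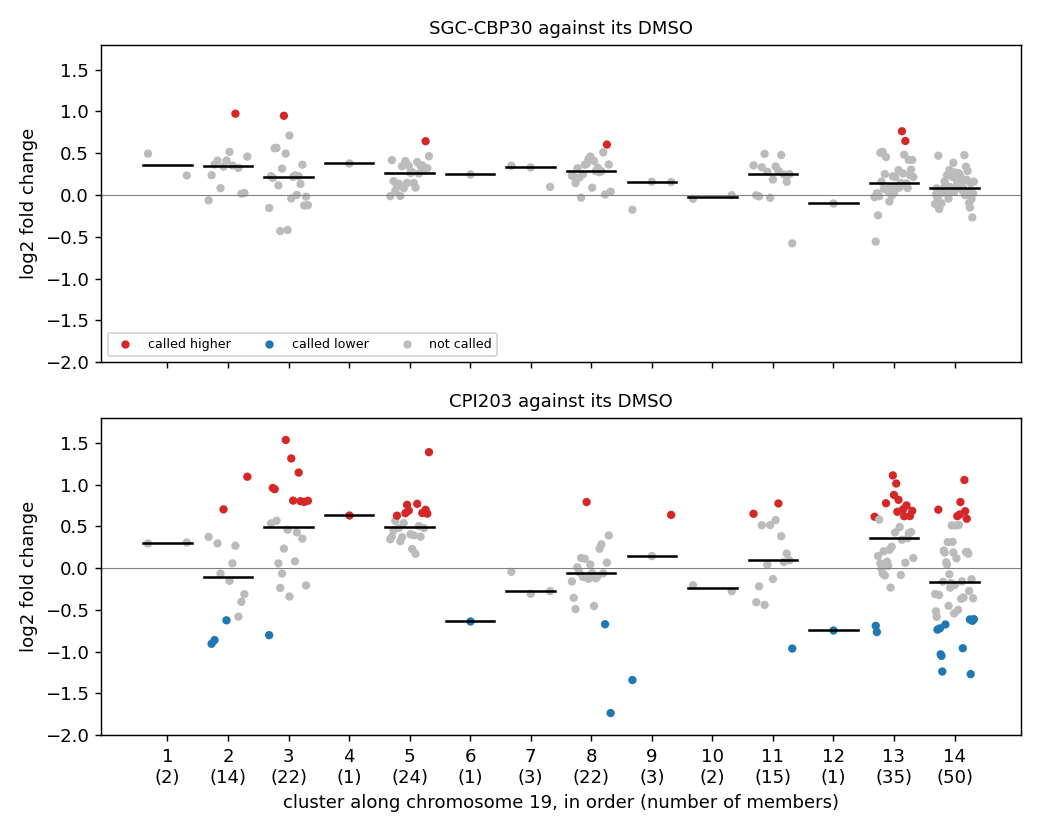
Log2 fold change of each member with SGC-CBP30 (top) and CPI203 (bottom), by cluster in order along chromosome 19, with the number of members in parentheses. Points are members in order of position, black lines are medians, and colours mark calls at 1.5-fold and adjusted p under 0.05; all 24 members of cluster 5 lie above 0 with CPI203.

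Promoter sequence was examined because the members of cluster 5 moved together with CPI203. Members of other clusters, such as cluster 14, diverged. Of the 194 symbols, 174 were in the RefSeq promoter table (GRCh38.p14), which holds the 250 bases before and 50 bases after a start. The letters CCGGAA, the core of an ETS factor site, were present on either strand in 58.6% of member promoters, against 32.5% of the 8419 promoters of genes tested and 17.6% of all 27305 promoters. CCAAT was present in 54.0%, against 38.0% and 35.7%, and TATAAA in 2.3%, against 4.73% of genes tested. GGGCGG, present in 66.7%, was less frequent than among genes tested (71.7%), and CACGTG was present in 5.17% against 10.7%. The median GC content of 59.8% was below that of genes tested, 65.3%. Zinc finger genes on other chromosomes held CCGGAA in 50.3% of their promoters and CCAAT in 44.0%.
Of the 39 members called higher with CPI203 that were in the table, 66.7% held CCGGAA and 64.1% CCAAT, with a median GC content of 58.0%. Of the 20 called lower, 10 held CCGGAA and 8 CCAAT, with a median GC content of 64.0%. Of the 115 not called, 57.4% and 53.0% did. CACGTG was present in 1 of the 39, in 5 of the 20 and in 3 of the 115. These are counts of letters in a fixed window, without a test, and a match is not a bound site.
The 250 bases before the start, read in the direction of the gene and with GRCh38.p14 coordinates, are shown for members of the largest changes and for cluster 5, in lower case with CCGGAA and CCAAT, on either strand, in capitals. ZNF254 and ZNF681 both lie in cluster 5, with ZNF726 between them, and their promoters were identical at 196 of 258 aligned positions, or 76.0%.
ZNF254, chr19:24086937-24087186, plus strand: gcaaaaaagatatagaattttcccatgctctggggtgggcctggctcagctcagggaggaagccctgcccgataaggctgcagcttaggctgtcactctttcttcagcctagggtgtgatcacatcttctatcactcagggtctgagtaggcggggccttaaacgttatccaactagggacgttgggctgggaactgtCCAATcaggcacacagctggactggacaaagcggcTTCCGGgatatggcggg
ZNF681, chr19:23758892-23759141, minus strand: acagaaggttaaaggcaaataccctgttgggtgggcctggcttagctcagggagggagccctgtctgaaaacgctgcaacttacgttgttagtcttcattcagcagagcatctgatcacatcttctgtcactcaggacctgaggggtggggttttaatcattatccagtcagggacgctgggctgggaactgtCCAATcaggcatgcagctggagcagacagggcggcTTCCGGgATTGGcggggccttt
They share an unbroken run of 26 bases around the CCAAT letters, TGGGCTGGGAACTGTCCAATCAGGCA, starting 67 bases before the start of ZNF254 and 72 bases before that of ZNF681. The run was chosen after the sequences were seen, as the longest that these 2 promoters share, so both hold it by construction. It was found in 3 of 27305 promoters, and the only one not fixed by this choice was that of ZNF91. ZNF91 also lies in cluster 5 and was called higher with CPI203, a call lost without CPI203 replicate 1 or DMSO replicate 2. ZNF844 of cluster 3, the largest increase, and ZNF584 of cluster 14 and ZNF573 of cluster 8, both decreases, are shown for comparison.
ZNF844, chr19:12064481-12064730, plus strand: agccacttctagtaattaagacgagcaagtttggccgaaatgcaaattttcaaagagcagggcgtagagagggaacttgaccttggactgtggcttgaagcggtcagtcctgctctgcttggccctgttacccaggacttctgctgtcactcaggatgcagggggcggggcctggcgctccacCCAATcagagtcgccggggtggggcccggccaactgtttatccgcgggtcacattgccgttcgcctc
ZNF584, chr19:58408399-58408648, plus strand: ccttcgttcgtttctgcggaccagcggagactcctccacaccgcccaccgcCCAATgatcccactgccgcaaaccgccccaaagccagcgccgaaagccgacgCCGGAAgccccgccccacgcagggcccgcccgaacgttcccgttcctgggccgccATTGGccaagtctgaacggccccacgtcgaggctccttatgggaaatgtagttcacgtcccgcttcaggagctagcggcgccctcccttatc
ZNF573, chr19:37779587-37779836, minus strand: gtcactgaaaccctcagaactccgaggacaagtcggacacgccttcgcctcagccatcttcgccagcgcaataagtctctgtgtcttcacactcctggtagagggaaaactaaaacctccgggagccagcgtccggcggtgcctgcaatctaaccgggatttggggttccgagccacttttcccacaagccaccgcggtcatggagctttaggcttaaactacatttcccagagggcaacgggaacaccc
ZNF584 held 1 CCGGAA and 2 CCAAT matches in this window, more than ZNF844, which held 1 CCAAT, and ZNF573 held neither. All other pairs of the printed promoters were identical at 46.9% to 54.1% of aligned positions, and presence of these letters did not separate the risen from the fallen genes among those shown.

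The responses to the compounds differed for 63 members at an adjusted p under 0.05 for the difference between the log2 fold changes, or 32.3% against 50.3% of all genes tested. In 36 of them the change with SGC-CBP30 was above that with CPI203 (18.5% of members, against 29.3% of all genes), and in 27 it was below (13.8% against 21.0%). The largest differences in the first direction were in ZNF573 (1.77, SE 0.29), ZNF584 (1.41), ZNF583 (1.31), ZNF414 (1.23) and ZNF546 (1.16) on the log2 scale. ZNF414 was at 6.83 and 6.09 RPKM with DMSO and 8.21 and 8.47 with SGC-CBP30, and at 5.68 and 6.47 with DMSO and 3.70 and 2.93 with CPI203. The largest that passed in the other direction were in ZNF20 (-1.35, SE 0.35), ZNF844 (-1.04), ZNF611 (-0.94), ZNF791 (-0.93) and ZNF564 (-0.92). ZNF573 was at 2.91 and 3.85 RPKM with SGC-CBP30, around its DMSO values of 3.39 and 3.13, and ZNF611 at 3.34 and 3.87, between its DMSO values of 4.01 and 2.91.
One member, ZNF681, was called with both compounds. It went from 8.60 and 9.13 to 14.7 and 14.2 RPKM with CPI203, and its changes of 0.64 and 0.70 differed by -0.05 (SE 0.10), which did not pass the test. At an adjusted p under 0.05 without a minimum fold, 24 members were higher with both, and 1 (ZNF296) was lower with both. A further 7 were higher with SGC-CBP30 and lower with CPI203, and 1 row of ZNF788 was the reverse. The shares of all genes in these classes were not counted, so these counts are a description. The 7 were ZNF146, ZNF414, ZNF507, ZNF121, ZNF155, ZNF559 and ZNF585A. ZNF146, the most abundant member, was at 34.6 and 34.6 RPKM with DMSO and 39.4 and 41.2 with SGC-CBP30 (log2 fold change 0.22, SE 0.05), and at 37.2 and 40.1 with DMSO and 30.6 and 29.7 with CPI203 (-0.36, SE 0.05). The groups overlapped in neither experiment.

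**Figure D4:**
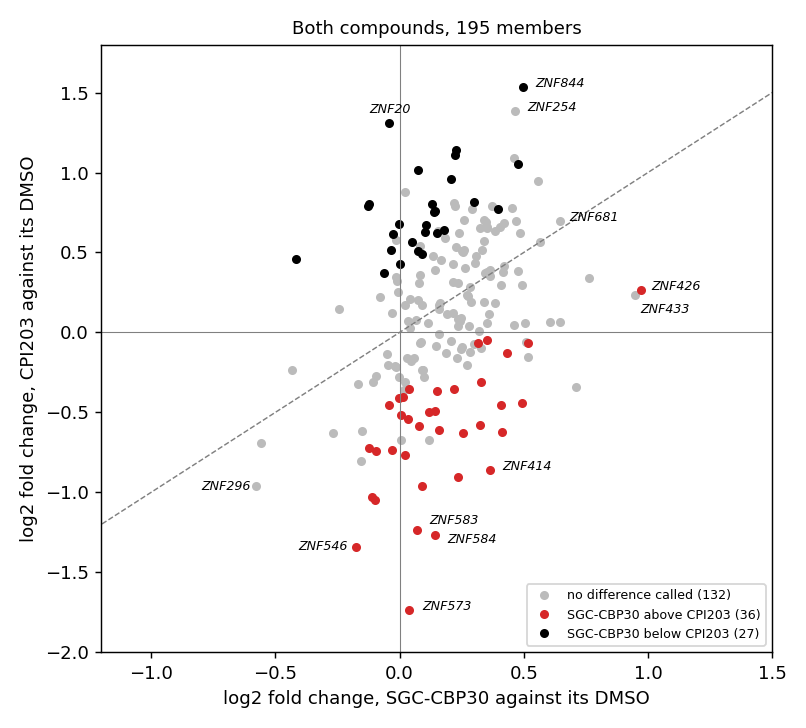
Log2 fold change with SGC-CBP30 (horizontal) and with CPI203 (vertical) for the 195 members, with the dashed line marking equal changes. Red points are the 36 members in which SGC-CBP30 was above CPI203, black points the 27 in which it was below, and grey points the other 132; CPI203 spread the members from -1.74 to 1.53 and SGC-CBP30 from -0.58 to 0.97.

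The DMSO libraries of the 2 experiments differed by a small amount in most members, more often upwards. The median log2 difference, CPI203 experiment minus SGC-CBP30 experiment, was 0.087 over the members and 0.01 over all genes tested. It was 0.043 over zinc finger genes on other chromosomes and -0.191 over other genes of chromosome 19. Of the members 136 were above 0, or 69.7% against 51.4% of all genes. The SGC-CBP30 median of 0.185 rests on DMSO libraries of this comparison, and the part of this difference in it was not tested. The limma fit called 6 members higher and 0 lower (9 were lower at an unadjusted p under 0.05), or 3.08% and 0% against 3.93% and 3.91% of all genes tested. Without a minimum fold 27 were higher and 5 lower, or 13.8% and 2.56% against 20.3% and 21.5%. The 6 were ZNF426, ZNF681, ZNF260, ZNF790, ZNF571 and ZNF888, of which ZNF888 differed most, from a mean of 1.30 to one of 2.27 RPKM (log2 difference 0.77).

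Genes of the corepressor pathway that KRAB proteins work through were followed with a list of 25, of which 24 were tested. MPHOSPH8 had no row that passed the level limit. With SGC-CBP30 the limma fit called 0 of the 24 higher and 1 lower, against 3.47% and 3.79% of all genes tested. With CPI203 it called 2 higher and 4 lower, against 13.4% and 14.4%. At an adjusted p under 0.05 without a minimum fold, 7 were higher and 5 lower with SGC-CBP30, against 25.6% and 14.8% of all genes. With CPI203 these counts were 7 and 11, against 31.1% and 33.1%. The counts of the 24 were not tested against these shares. The list was chosen with earlier results of these data known. TRIM28, the corepressor that KRAB domains bind, was the most abundant of the list. It was at 231.6 and 261.1 RPKM with DMSO and at 267.8 and 266.0 with SGC-CBP30 (log2 fold change 0.12, SE 0.05, adjusted p = 0.0976, limma). It was at 208.7 and 198.4 RPKM with DMSO and at 277.9 and 267.9 with CPI203 (0.42, SE 0.05), which passed the test without reaching 1.5-fold. For TRIM28 both DMSO libraries of CPI203 lay below both of SGC-CBP30, and the part of the DMSO level in this rise was not tested.
SETDB1, the methyltransferase that TRIM28 recruits, was at 61.4 and 61.8 RPKM with DMSO and at 31.5 and 30.7 with CPI203, a log2 fold change of -0.98 (SE 0.04, adjusted p = 6.18e-08, limma). With SGC-CBP30 it was at 61.8 and 65.3 RPKM, around its DMSO values of 64.5 and 63.1. ATF7IP, the partner that stabilises SETDB1, went the other way with CPI203, from 13.1 and 13.3 to 27.4 and 28.9 RPKM (1.09, SE 0.07). Among the other members of the list, DNMT3A (-0.97), SMARCAD1 (-0.85) and CHD3 (-0.82) were called lower with CPI203 and UHRF1 (0.59) higher, while DNMT3B was called lower with SGC-CBP30 (-0.60). The call of UHRF1 ended without DMSO replicate 2 (0.584) or CPI203 replicate 2 (0.56), and that of DNMT3B without SGC-CBP30 replicate 2 (-0.566). With all 4 DMSO libraries as controls both calls ended, at 0.378 for UHRF1 and -0.29 for DNMT3B. That of UHRF1 also ended with median scaling (0.577) and quantile normalization (0.58). UHRF1 was at 17.3 and 17.2 RPKM in the DMSO of SGC-CBP30, and at 12.9 and 12.85 in that of CPI203. DNMT3B was at 43.9 and 44.8 RPKM in the DMSO of SGC-CBP30 and at 29.9 and 28.5 with SGC-CBP30. In the DMSO of CPI203 it was already at 28.6 and 28.9 RPKM. The heterochromatin protein genes CBX1 (0.25) and CBX5 (0.49) were higher with CPI203 and CBX3 (-0.30) was lower, all at an adjusted p under 0.05 and none at 1.5-fold. ZNF274, a KRAB zinc finger protein known to bring SETDB1 to zinc finger genes, was named for that role after its values were seen. It was at 12.2 and 12.5 RPKM with DMSO and at 14.3 and 13.6 with CPI203 (0.17, SE 0.06).

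**Figure D5:**
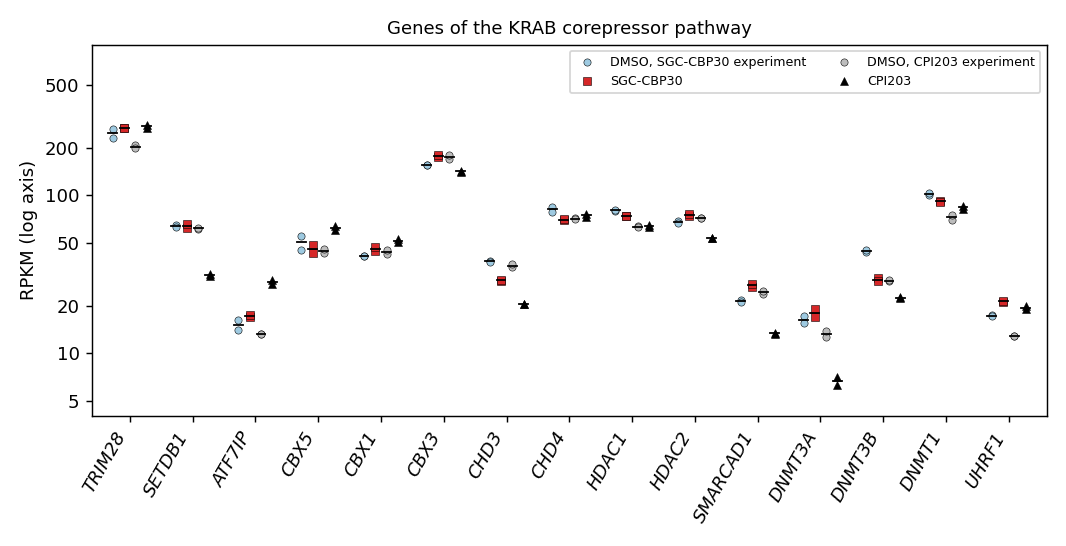
RPKM of 15 genes of the corepressor pathway in each of the 8 libraries, on a log axis. Each point is 1 library and each short line the mean of 2; with CPI203 SETDB1 lies at 31.5 and 30.7 RPKM, below the other 6 libraries, and ATF7IP at 27.4 and 28.9 RPKM, above them.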

How the data were processed

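RNA of LP-1 cells was sequenced in 8 libraries of 4 groups with 2 libraries each. The authors aligned reads with TopHat 1.4.1 to hg19, per the labels' processing notes, which also name Cufflinks, and deposited RPKM values per gene; how reads shared by paralogs or overlapping genes were assigned is not given in the sources used here. The table held 63129 rows, and 24 columns of other samples were not used. The 14732 genes that averaged 1 RPKM or more were tested with limma 3.58.1 in R 4.3.3 on log2(RPKM + 0.1), a scale that understates changes of low genes, with 4 group means, an intensity trend and Benjamini-Hochberg adjustment over all genes tested. All adjusted p-values are from this fit, and changes are log2 fold changes on that scale. A called gene had an adjusted p under 0.05 and at least a 1.5-fold change; a difference between compounds needed the adjusted p only. An exact permutation test of 2 against 2 libraries cannot go below p = 0.333, so none was used.

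Fingers and KRAB patterns were counted in the longest open reading frame of GENCODE release 29 transcripts matched by Ensembl identifier, in place of the protein table planned, and promoters came from RefSeq (GRCh38.p14) by symbol. Sequence tools were Python 3.11.15 and Biopython 1.88. Named genes are the 8 largest called increases and decreases with each compound, the 5 largest differences between compounds in each direction, the 5 highest levels, genes at the level limit and the largest change of each cluster; others were named after their values were seen. The members, as a family, and the lists were chosen with earlier results of these data known; within the family only the mean level over all 8 libraries decided which rows entered. The fit was tested on simulated data. Alternatives were another pseudocount, other level limits, scalings, fold limits and controls, a replicate block, and leaving out each library. Members by the DMSO libraries alone were added after seeing the data.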

Additional observations from a re-analysis of the deposited data

Results flagged for a closer look

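The change with SGC-CBP30 differed from that with CPI203 in 63 members at an adjusted p under 0.05 from limma. The following values are the log2 fold change with SGC-CBP30 minus that with CPI203, for every member named in the text, and every gene of the corepressor list, in which this difference passed the test.

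Among increases with CPI203, the difference was -1.35 for ZNF20, -1.04 for ZNF844, -0.94 for ZNF611, -0.93 for ZNF791, -0.92 for both ZNF564 and ZNF799, -0.89 for ZNF701 and -0.58 for ZNF587. Among decreases with CPI203, it was 1.77 for ZNF573, 1.41 for ZNF584, 1.31 for ZNF583, 1.23 for ZNF414 and 1.16 for ZNF546. It was 1.05 for ZNF587B, 0.95 for ZNF444, 0.92 for ZNF787, 0.89 for ZNF507 and 0.64 for ZNF473. ZNF426, called with SGC-CBP30, differed by 0.71. The differences of ZNF788 (-0.88), ZNF417 (-0.68), ZNF93 (-0.52) and ZNF100 (-0.37) were below 0. Those of ZNF358 (1.14), ZNF559 (1.04), ZNF155 (0.93), ZNF121 (0.91), ZNF585A (0.86), ZNF446 (0.77), ZNF865 (0.71) and ZNF581 (0.6) were above 0. ZNF181 differed by 0.64, ZNF146 by 0.58 and ZNF302 by 0.4, none of them called at 1.5-fold with either compound.

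In the corepressor pathway the difference was 1.18 for SMARCAD1, 1.12 for DNMT3A, 0.98 for SETDB1, 0.55 for both EHMT2 and HDAC2, 0.49 for CBX3, 0.44 for SUV39H1, 0.42 for CHD3, 0.41 for ATRX, 0.27 for SUV39H2 and 0.16 for DAXX. It was -0.89 for ATF7IP, -0.63 for CBX5, -0.36 for DNMT1, -0.31 for TRIM28, -0.29 for UHRF1, -0.28 for CHD4, -0.25 for DNMT3B and -0.14 for HDAC1.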

How the results depend on the processing

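No log2 fold change of a named gene past its test reversed; over all these genes and settings, calls were kept 751 times and lost 82 times. Members called higher with SGC-CBP30 (6) were 1 with a pseudocount of 1, 1 at a mean of at least 5 RPKM, 3 with median scaling, 3 with quantile normalization, 0 with all 4 DMSO libraries as controls, 0 at 2-fold and 48 with no minimum fold. They were 3 to 7 with 1 library left out, lowest without SGC-CBP30 replicate 2. Members called lower (0) were 1 with either scaling, 3 with no minimum fold and 0 to 1 with 1 library left out. With CPI203, members called higher (44) and lower (23) were 23 and 13 with a pseudocount of 1, 12 and 10 at 5 RPKM, 8 and 6 at 2-fold, 77 and 43 with no minimum fold, and 28 and 11 where no other gene overlaps, a setting chosen after seeing the data. Selecting genes by the mean of the 4 DMSO libraries, also chosen after seeing the data, gave 193 members, 42 called higher, 24 lower and a CPI203 median of 0.145. Among the 195 they were 37 to 44 and 20 to 21 with 1 library left out. Differences above (36) and below (27) were 22 and 11 at 5 RPKM, 41 and 51 with all 4 DMSO libraries, and 29 to 41 and 13 to 30 with 1 library left out, where 13 is without SGC-CBP30 replicate 1. Between the DMSO pairs, members called higher (6) were 0 with a pseudocount of 1, 2 at 5 RPKM, 3 with median scaling, 2 with quantile normalization, 0 at 2-fold, 27 with no minimum fold and 2 to 8 with 1 library left out, lowest without replicate 2 of the CPI203 experiment's DMSO. Those called lower (0) were 1 with either scaling, 5 with no minimum fold and 0 to 2 with 1 library left out. The SGC-CBP30 median (0.185) was 0.145 with a pseudocount of 1, 0.109 with median scaling, 0.105 with quantile normalization, 0.123 with all 4 DMSO libraries and 0.159 to 0.221 with 1 library left out. The CPI203 median (0.172) was 0.126, 0.057 at 5 RPKM, 0.275 with all 4 DMSO libraries and 0.146 to 0.189, where the first is with a pseudocount of 1 and the range leaves out 1 library. Beyond settings that test fewer genes or samples, the cause was not tested.

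All 6 SGC-CBP30 calls ended with all 4 DMSO libraries, at 0.263 to 0.736; with a pseudocount of 1 only ZNF426 kept its call. Those of ZNF415, ZNF433, ZNF571 and ZNF888 ended with some library left out. The CPI203 calls of ZNF91, ZNF93, ZNF333, ZNF446, ZNF507, ZNF559, ZNF575, ZNF653, ZNF699, ZNF784, ZNF865 and UHRF1 ended both without some library and with a pseudocount of 1 or no level limit, that of ZNF564 without 1 DMSO library, and those of ZNF345 and ZNF417 with a pseudocount of 1. Differences of ZNF20, ZNF611 and ZNF564 did not pass without a level limit, that of ZNF546 with quantile normalization (0.711) or without SGC-CBP30 replicate 1, and that of ZNF564 in 4 settings with 1 library left out. Same-numbered replicates did not deviate together (correlations -0.172 and -0.039 over 8298 genes), so the numbers were not taken as pairs. The replicate block gave 6 and 0 calls with SGC-CBP30, 44 and 23 with CPI203, and 36 and 26 differences; pairing the SGC-CBP30 numbers crosswise gave 6 and 0 calls and 38 and 27 differences. Depth limits members near 1 RPKM, which rest on about 80 reads at the lowest.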
